A study of Mus musculus with 24 samples.

Results

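The cyclins and cyclin-dependent kinases (Cdks) described here are 10 genes that drive the cell cycle: the D-type cyclins *Ccnd1*, *Ccnd2* and *Ccnd3*, the E-type cyclin *Ccne2*, the A-type cyclin *Ccna2*, the B-type cyclins *Ccnb1* and *Ccnb2*, and the kinases *Cdk1*, *Cdk2* and *Cdk4*. They were chosen by name, and all 10 were found by their Ensembl identifiers among the 15667 genes listed for uninjected hearts and the 15327 listed for injected hearts. RNA was taken from hearts (the apex per the labels, the ventricles per the methods) of mice at postnatal day 7.5 in 24 libraries, 4 in each of 6 groups. WT and *Xinβ* KO hearts were either left uninjected, or injected under the skin at postnatal day 1 with adeno-associated virus of serotype 9 (AAV9) carrying GFP or YAP S127A. *Xinβ*, also called *Xirp2*, encodes a protein of the intercalated disc, the junction between heart muscle cells. The KO is a germline allele, present in every cell of the animal, in which a LacZ-Neor cassette takes the place of part of *Xinβ*, on a C57BL6 background, and the controls were littermates. YAP S127A is a FLAG-tagged human YAP that the Hippo kinases cannot switch off at that serine. Both viral genes were driven by a cardiac troponin T promoter, which is active in cardiomyocytes, while the RNA came from all cells of the tissue. Uninjected hearts were sequenced as 50 bp single reads and injected hearts as 150 bp read pairs, so the tables were compared only within themselves.

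A cyclin is the regulatory partner that switches on a Cdk, and each cyclin type is made at its own stage of the cycle. D-type cyclins with Cdk4 or Cdk6 start the passage through G1 in answer to growth signals, E-type cyclins with Cdk2 bring the cell into S phase, cyclin A acts in S phase and G2, and cyclin B with Cdk1 drives mitosis. D-type cyclin mRNA is held up by growth signals also in cells outside S phase and mitosis, whereas A- and B-type mRNA is low in resting cells. In mice, cardiomyocytes leave the cell cycle within days of birth, and other cells of the heart still divide at that age. In bulk RNA, fewer cells of a type and less RNA in each cell cannot be told apart.

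Libraries held an estimated 20490875 to 31154155 reads on genes in uninjected hearts and 15015038 to 19444404 in injected hearts. These and all read numbers rest on the read length set in counting, which is not stated, and could differ from the true ones by a constant factor in each experiment. *Xirp2* was 106 to 168 CPM (read counts scaled to library size) in uninjected WT hearts and 0.291 to 0.692 CPM in KO hearts, and it was at most 0.972 CPM in every injected KO library, so the labels of genotype held in all 24 libraries. The KO uninjected heart of replicate 4 stood apart from the other 3 KO hearts in the cell cycle genes. Its *Xirp2* was 0.519 CPM, within the KO range, and its *Ddx3y*, a gene of the Y chromosome, was 3.68 CPM against 21.7 to 56.2 CPM in the other 3. The tests of the members in that comparison are therefore given with and without this library. The sex of the mice is not labelled, and the methods state an equal mix of sexes in each group. *Ddx3y* was 39.5 to 49.6 CPM in all 4 uninjected WT hearts, so the low KO replicate 4 was the only such heart of that comparison. Its part in the result was not tested beyond a fit with *Ddx3y* as a covariate, whose calls are given at the end. As replicate 4 was the only low heart, that fit cannot tell *Ddx3y* from other traits of this heart. In injected hearts *Ddx3y* was under 1 CPM in 1 WT/GFP, 1 KO/GFP and 2 KO/YAP hearts and 8.61 CPM in 1 WT/YAP heart. Only KO/YAP thus held 2 low and 2 high hearts, so these levels do not show an equal mix in each group. The low KO/GFP heart was replicate 2 (0.588 CPM), the highest of its group in all members but *Ccnd3* and *Ccne2*. Its part in the result was not tested beyond the fit with *Ddx3y* as a covariate.

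Of the 10 members, 2 were lower in uninjected *Xinβ* KO hearts than in WT hearts at an adjusted p under 0.05 by limma (*Ccnd2* and *Ccne2*), where 3.46% of all 15598 genes tested were called lower. Without KO replicate 4 it was 8 of 10, all members but *Cdk2* and *Cdk4*, where 7.98% of all genes were called lower. This library was set aside after its high cyclin values were seen, so the fits without it are a description of the other 7 hearts, and their p-values for these genes are no independent test. Without KO replicate 1, 1 member was called, where 5.1% of all genes were called lower, and without each of the other 6 libraries in turn 0 members were called by limma, where 1.23% to 2.04% of genes were called lower. In injected hearts, 6 members were lower in KO/GFP than in WT/GFP (*Ccnd2*, *Ccne2*, *Ccna2*, *Cdk1*, *Ccnb1* and *Ccnb2*) and none was higher, where 7.22% of 14597 genes were called lower. The libraries of the groups did not overlap for 2 members in uninjected hearts (8.43% of all genes did not overlap with KO lower) and for 5 members between KO/GFP and WT/GFP (7.95% of genes). Between KO/YAP S127A and KO/GFP hearts, 3 members were higher (*Ccnd2*, *Ccna2* and *Ccnb1*) and none lower, where 7.85% of genes were called higher, and the libraries did not overlap for these 3 (9.02% of genes). By limma, 7 members were called in this comparison with plain library totals, and 6 without KO/GFP replicate 2 or without KO/GFP replicate 3. Of all 14597 genes, 2156, 1357 and 1279 were called higher in these 3 fits, against 1146 in the main fit. Both of these comparisons use the same 4 KO/GFP libraries, so they are not independent. With plain library totals in place of the rescaled sizes, the median of all genes shifted by -0.12 (KO against WT, uninjected), -0.11 (KO/GFP against WT/GFP) and 0.13 (KO/YAP against KO/GFP) on the log2 scale. The split of all called genes into higher and lower went from 504 and 540 to 353 and 1241, from 939 and 1054 to 590 and 1759, and from 1146 and 1010 to 2156 and 591, respectively. The labels give replicate samples and no more, so the p-values measure the spread between these samples.

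**Figure D1:**
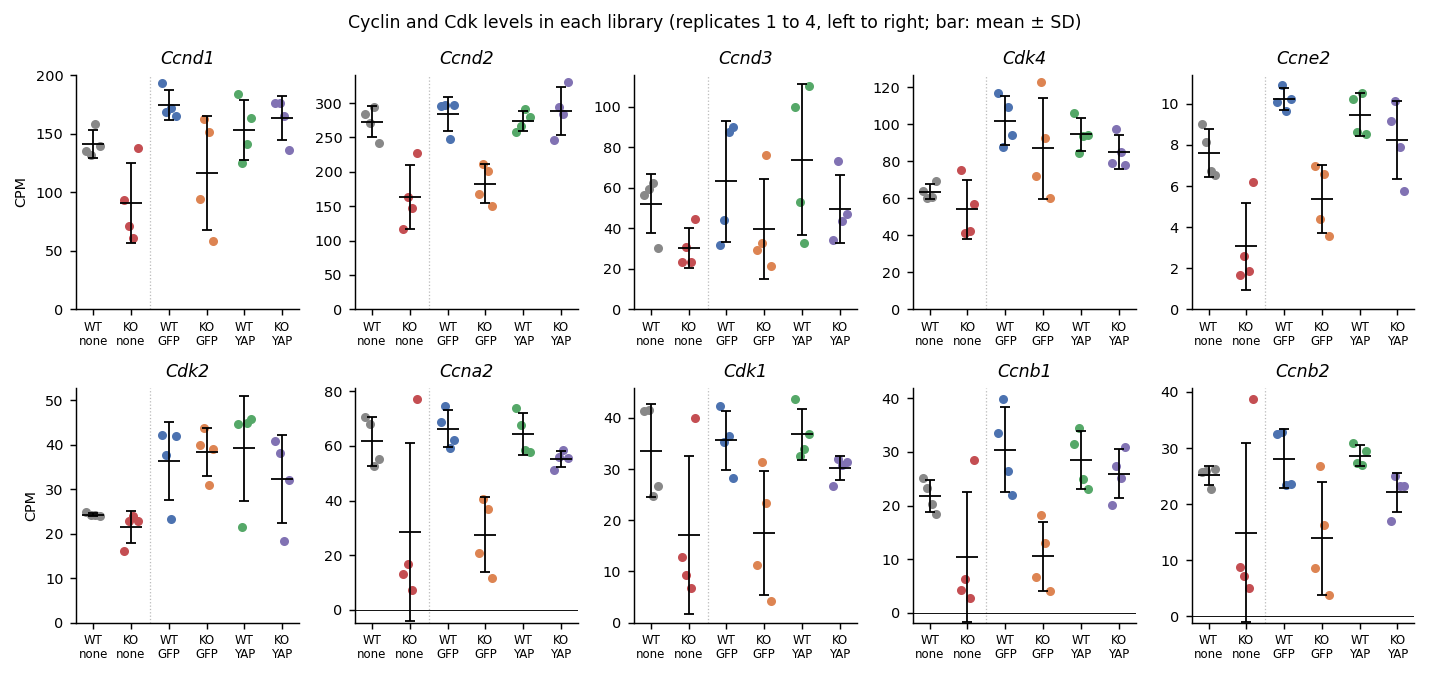
Level in CPM (vertical axis, one scale per gene) of the 10 members in each of the 24 libraries, with WT or KO and no virus, GFP or YAP on the horizontal axis; points are replicates 1 to 4 from left to right, and bars give the mean ± SD of 4 libraries. In *Ccna2*, *Cdk1*, *Ccnb1* and *Ccnb2* the uninjected KO heart of replicate 4 lies far above the other 3 KO hearts, and *Ccnd3* and *Cdk2* spread widely within the injected groups.

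Among the D-type cyclins, *Ccnd2* (chr6:127125162-127152193, minus strand, GRCm38) had the steadiest difference. Uninjected WT hearts held 284, 271, 294 and 242 CPM of *Ccnd2*, and KO hearts held 116, 163, 147 and 227.2 CPM. The groups did not overlap, and KO replicate 4 came nearest to WT. The mean in KO hearts was 60.0% of the WT mean, a log2 difference of -0.77 ± 0.18 (SE, n = 4 and 4, limma adjusted p = 0.0402), which became -0.94 without KO replicate 4 (limma adjusted p = 0.00321). This call was lost when any one of 6 of the 8 libraries was left out, with edgeR's quasi-likelihood test (edgeR adjusted p = 0.053) and with the replicate number as a block (limma adjusted p = 0.104).

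In injected hearts *Ccnd2* was 296, 297, 247.2 and 297 CPM in WT/GFP, 168, 211, 201 and 151 CPM in KO/GFP, 246, 294, 284 and 331 CPM in KO/YAP, and 258, 267, 291 and 280.2 CPM in WT/YAP. All 4 KO/GFP hearts lay below every heart of the other 3 groups. The log2 difference was -0.64 ± 0.11 for KO/GFP against WT/GFP (limma adjusted p = 0.0015) and 0.66 ± 0.11 for KO/YAP against KO/GFP (limma adjusted p = 0.00112), and both calls held with each of 8 libraries left out in turn. Between KO/YAP and WT/GFP the difference was 0.02, with a 95% interval of -0.22 to 0.25. The effect of the virus on *Ccnd2* differed between KO and WT hearts in the interaction test (log2 0.71 ± 0.16, limma adjusted p = 0.014), where 7.56% of all genes were called. It was 1 of 10 members called there by limma, against 3 with DESeq2, with plain library totals, or without KO/GFP replicate 2 or 3. Of all 14597 genes, 1545, 1229, 1474 and 1295 were called in these fits, in this order, against 1104 in the main fit. *Ccnb1* (log2 1.47 ± 0.44, limma adjusted p = 0.0533) and *Ccna2* (log2 1.17 ± 0.37, limma adjusted p = 0.0621) had larger interactions that just missed the threshold.

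*Ccnd1* (chr7:144929931-144939925, minus strand), a D-type cyclin that mitogens raise, moved by a similar amount but with more spread. It was 136, 132, 158 and 139 CPM in uninjected WT hearts and 93.8, 71.4, 61.2 and 138 CPM in KO hearts, where replicate 4 lay among the WT values. In injected hearts it was 194, 169, 172 and 165 CPM in WT/GFP, 94.2, 162, 151 and 58.1 CPM in KO/GFP, and 176, 176, 166 and 136 CPM in KO/YAP. The KO/GFP and WT/GFP hearts did not overlap, yet KO/GFP replicates 2 and 3 lay just under the WT/GFP hearts and replicates 1 and 4 far below. None of the 3 differences passed the test: log2 -0.69 ± 0.22 in uninjected hearts (limma adjusted p = 0.0984), -0.69 ± 0.23 for KO/GFP against WT/GFP (limma adjusted p = 0.0599) and 0.59 ± 0.23 for KO/YAP against KO/GFP (limma adjusted p = 0.101). Without KO replicate 4 the uninjected difference was -0.91 (limma adjusted p = 0.006). Both injected differences were called without KO/GFP replicate 2 or without replicate 3. With 1 library left out they ran from -0.89 to -0.40 and from 0.30 to 0.79.

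*Ccnd3* (chr17:47505051-47599691, plus strand), the third D-type cyclin, varied more within the injected groups than between them. WT/GFP hearts held 31.6, 43.9, 87.5 and 89.9 CPM, KO/GFP hearts 29.2, 32.6, 76.2 and 21.2 CPM, KO/YAP hearts 34.1, 73.3, 43.6 and 47.0 CPM, and WT/YAP hearts 99.7, 53.0, 32.5 and 110.4 CPM. All 4 injected groups overlapped. In uninjected hearts *Ccnd3* was 56.5, 59.5, 62.4 and 30.3 CPM in WT and 23.4, 30.7, 23.3 and 44.3 CPM in KO, again with overlap (log2 -0.75 ± 0.27, limma adjusted p = 0.134). Without KO replicate 4 it was -0.95 (limma adjusted p = 0.045). The exons of *Ccnd3* overlap those of *Bysl* on the other strand, as those of *Ccna2*, *Ccnd1*, *Ccne2*, *Cdk2* and *Cdk4* overlap *Exosc9*, *LTO1*, *Ints8*, *Pmel* and *Tspan31*, and those of *Ccnd2* overlap antisense genes. The libraries were strand-specific, but it is not stated that strand was used in counting, so reads of such pairs may be mixed. Over the 16 injected libraries *Bysl* ranged from 45.2 to 62.3 CPM. *Exosc9*, over *Ccna2*, was 39.4, 34.9, 34.2 and 34.1 CPM in WT/GFP and 25.4, 33.8, 28.8 and 20.9 CPM in KO/GFP, with replicates 1 and 4 lowest, as for *Ccna2*. *Tspan31*, over *Cdk4*, was highest in KO/GFP replicate 2 (63.4 CPM) and, in uninjected hearts, in KO replicate 1 (47.8 CPM), the hearts where *Cdk4* was highest too. The part of such reads in the member values was not tested.

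*Cdk4* (chr10:127063534-127067920, plus strand), the kinase that D-type cyclins activate, did not pass the test in any comparison with all libraries in the fit. Without KO/GFP replicate 2 it was called lower in KO/GFP than in WT/GFP hearts, at a log2 difference of -0.45. It was 63.6, 60.3, 60.8 and 69.2 CPM in uninjected WT hearts and 75.2, 41.3, 42.5 and 56.7 CPM in KO hearts. In injected hearts it was 117, 87.4, 109.5 and 94.3 CPM in WT/GFP, 71.9, 123, 92.6 and 60.4 CPM in KO/GFP and 79.2, 97.6, 85.1 and 77.8 CPM in KO/YAP. The log2 difference in uninjected hearts was -0.27 ± 0.18 (limma adjusted p = 0.441), and -0.31 without KO replicate 4 (limma adjusted p = 0.382). The groups overlapped throughout, and the 95% interval of the log2 difference was -0.62 to 0.08 for KO/GFP against WT/GFP and -0.34 to 0.37 for KO/YAP against KO/GFP.

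*Ccne2* (chr4:11191351-11204779, plus strand), the E-type cyclin on the list, was the lowest member. It fell in KO/GFP hearts, and in uninjected KO hearts it passed the test by a narrow margin. It was 9.02, 8.12, 6.72 and 6.55 CPM in uninjected WT hearts and 1.65, 2.57, 1.85 and 6.18 CPM in KO hearts, which is an estimated 34 to 131 reads in each KO library. The groups did not overlap, although KO replicate 4 reached to just under WT. The log2 difference was -1.20 ± 0.29 (limma adjusted p = 0.0446) and -1.51 without KO replicate 4 (limma adjusted p = 0.000816), and with any other library left out the call was lost. It was also lost with edgeR's quasi-likelihood test (edgeR adjusted p = 0.0859), with the replicate number as a block (limma adjusted p = 0.0943), and with quantile scaling, a pseudocount of 0.1 or a filter of 5 CPM (limma adjusted p = 0.0503 to 0.0539).

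In injected hearts *Ccne2* was 10.1, 10.9, 9.68 and 10.2 CPM in WT/GFP, 6.95, 4.38, 6.61 and 3.58 CPM in KO/GFP, 9.19, 10.2, 7.89 and 5.78 CPM in KO/YAP, and 10.2, 8.62, 10.5 and 8.53 CPM in WT/YAP. Every KO/GFP heart was below every WT/GFP heart, and KO/YAP hearts lay between, overlapping both. *Ccne2* was lower in KO/GFP than in WT/GFP hearts by a log2 difference of -0.85 ± 0.18 (limma adjusted p = 0.0053). The difference between KO/YAP and KO/GFP hearts, 0.55 ± 0.18, just missed the threshold (limma adjusted p = 0.0519). With DESeq2 it was 0.62 (DESeq2 adjusted p = 0.0296).

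*Cdk2* (chr10:128697939-128705031, minus strand), the partner of E- and A-type cyclins, passed no test. Uninjected WT hearts held 24.8, 24.2, 24.2 and 23.9 CPM and KO hearts 16.03, 22.8, 24.0 and 22.9 CPM, so that replicate 1 alone set most of the log2 difference of -0.19 ± 0.13 (limma adjusted p = 0.475), which was -0.22 without KO replicate 4 (limma adjusted p = 0.374). In injected hearts single libraries stood far below the rest of their group: 23.4 CPM in WT/GFP replicate 3 against 37.8 to 42.1, 21.5 CPM in WT/YAP replicate 2 against 44.8 to 45.7, and 18.4 CPM in KO/YAP replicate 3 against 32.0 to 40.8. KO/GFP hearts held 30.9 to 43.7 CPM. Even so, the interval for KO/GFP against WT/GFP, -0.45 to 0.66 on the log2 scale, holds no difference as large as that of *Ccna2*.

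*Ccna2* (chr3:36564865-36572150, minus strand), which is made from S phase until early mitosis, fell in KO/GFP hearts and was higher again in KO/YAP hearts. WT/GFP hearts held 68.8, 74.5, 59.3 and 62.3 CPM, KO/GFP hearts 20.7, 40.5, 37.0 and 11.6 CPM, KO/YAP hearts 51.2, 55.9, 58.6 and 55.5 CPM, and WT/YAP hearts 73.9, 67.6, 58.5 and 57.9 CPM. No KO/GFP heart reached the lowest heart of the other 3 groups, and all 4 KO/YAP hearts lay below all 4 WT/GFP hearts by a small margin. KO/GFP hearts had 41.5% of the WT/GFP mean, a log2 difference of -1.38 ± 0.26 (limma adjusted p = 0.00242), and KO/YAP hearts had 83.5% of it. KO/YAP exceeded KO/GFP by 1.13 ± 0.26 (limma adjusted p = 0.00792), and both calls held with each library left out. With only those 2 groups in the fit the second missed the threshold (limma adjusted p = 0.0553).

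In uninjected hearts *Ccna2* was 70.7, 68.1, 52.8 and 55.3 CPM in WT and 12.9, 16.7, 7.04 and 77.2 CPM in KO. All KO hearts but one had less than the lowest WT heart, and replicate 4 had more than the highest. The log2 difference of -1.65 ± 0.58 did not pass (limma adjusted p = 0.127), and without replicate 4 it was -2.31 (limma adjusted p = 0.00104).

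*Ccnb1* (chr13:100778650-100786570, minus strand), the main mitotic cyclin, had the largest difference of the 10 members in injected hearts. WT/GFP hearts held 33.5, 39.9, 26.4 and 21.97 CPM, KO/GFP hearts 6.70, 18.3, 13.1 and 4.08 CPM, KO/YAP hearts 20.2, 27.5, 25.2 and 31.0 CPM, and WT/YAP hearts 31.5, 34.4, 24.9 and 23.0 CPM. KO/GFP hearts lay below all others, with replicates 1 and 4 lowest. KO/GFP had 34.6% of the WT/GFP mean (log2 -1.60 ± 0.31, limma adjusted p = 0.00319), and KO/YAP had 246% of the KO/GFP mean (log2 1.39 ± 0.31, limma adjusted p = 0.0071). Both calls held with each library left out.

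In uninjected hearts *Ccnb1* was 25.1, 23.2, 20.2 and 18.4 CPM in WT and 4.27, 6.36, 2.75 and 28.5 CPM in KO. As for *Ccna2*, 3 KO hearts lay below WT and replicate 4 above it. The log2 difference was -1.48 ± 0.54 (limma adjusted p = 0.142), or -2.10 without replicate 4 (limma adjusted p = 0.000896). Reads of *Ccnb1* and *Ccnb2* could in part be shared with the annotated pseudogenes *Ccnb1-ps* and *Ccnb2-ps*, and those of *Ccnd3* with *Ccnd3-ps*.

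*Ccnb2* (chr9:70407692-70421547, minus strand), the second mitotic B-type cyclin, and *Cdk1* (chr10:69335146-69352938, minus strand), the kinase both B-type cyclins activate, are described side by side. *Ccnb2* was 32.6, 32.9, 23.4 and 23.7 CPM in WT/GFP, 8.69, 26.9, 16.3 and 3.75 CPM in KO/GFP, and 17.1, 24.9, 23.2 and 23.3 CPM in KO/YAP. *Cdk1* was 42.4, 35.3, 36.5 and 28.2 CPM in WT/GFP, 11.3, 31.4, 23.3 and 4.30 CPM in KO/GFP, and 26.7, 32.1, 30.9 and 31.3 CPM in KO/YAP. For both, KO/GFP replicates 1 and 4 were far below WT/GFP, while replicate 2 lay among the WT/GFP hearts. They were lower in KO/GFP than in WT/GFP hearts by log2 -1.24 ± 0.36 for *Ccnb2* (limma adjusted p = 0.0299) and -1.27 ± 0.37 for *Cdk1* (limma adjusted p = 0.0316).

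Neither of these calls was firm. With edgeR's quasi-likelihood test the adjusted p was 0.0826 for *Ccnb2* and 0.0823 for *Cdk1*. The call of *Ccnb2* held with 4 of 8 libraries left out in turn and that of *Cdk1* with 3. Against KO/GFP, KO/YAP hearts had 159% of the mean of *Ccnb2* (limma adjusted p = 0.1) and 172% of that of *Cdk1* (limma adjusted p = 0.0682), neither past the threshold.

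In uninjected hearts *Ccnb2* was 25.8, 25.9, 22.7 and 26.3 CPM in WT and 8.84, 7.25, 4.995 and 38.7 CPM in KO, and *Cdk1* was 41.3, 41.6, 24.7 and 26.7 CPM in WT and 12.7, 9.22, 6.74 and 39.98 CPM in KO. Replicate 4 was once more at or above the WT level. The log2 differences were -1.15 ± 0.50 for *Ccnb2* (limma adjusted p = 0.211) and -1.21 ± 0.46 for *Cdk1* (limma adjusted p = 0.157), and neither passed. Without replicate 4 they were -1.73 for *Ccnb2* (limma adjusted p = 0.000692) and -1.71 for *Cdk1* (limma adjusted p = 0.004).

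Promoter windows of RefSeq (GRCm38.p6, 250 bases before to 50 after a start) were matched by symbol for 6 of the 10 members: *Ccnb1*, *Ccnb2*, *Cdk1*, *Cdk2*, *Cdk4* and *Ccnd3*. None was matched for *Ccna2*, *Ccnd1*, *Ccnd2* and *Ccne2*. Genes of G2 and mitosis are known for CCAAT boxes, bound by NF-Y, and for the cell cycle homology region (CHR, TTTGAA), bound by the DREAM and MuvB complexes. The 150 bases before the outermost annotated start of the 3 mitotic members, which were lower in KO/GFP hearts, and of *Cdk4*, which did not pass the test, are printed 5′ to 3′ on the strand of the gene, with CCAAT (or its complement) and TTTGAA in capitals. They lie at chr13:100786571-100786720, chr9:70421555-70421704, chr10:69352939-69353088 and chr10:127063384-127063533 in this order.
Ccnb1: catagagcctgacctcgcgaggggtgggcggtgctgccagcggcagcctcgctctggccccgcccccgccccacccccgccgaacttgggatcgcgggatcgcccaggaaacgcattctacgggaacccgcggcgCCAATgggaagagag
Ccnb2: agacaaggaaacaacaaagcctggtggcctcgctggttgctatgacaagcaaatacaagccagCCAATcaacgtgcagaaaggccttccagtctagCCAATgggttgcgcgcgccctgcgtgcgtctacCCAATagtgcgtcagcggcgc
Cdk1: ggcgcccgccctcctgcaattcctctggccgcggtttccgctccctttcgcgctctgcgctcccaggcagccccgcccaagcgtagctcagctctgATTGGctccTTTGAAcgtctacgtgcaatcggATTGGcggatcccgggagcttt
Cdk4: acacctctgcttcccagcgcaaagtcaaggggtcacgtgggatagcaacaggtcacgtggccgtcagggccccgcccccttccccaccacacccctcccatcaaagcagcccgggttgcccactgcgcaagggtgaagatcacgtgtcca

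In the printed stretches CCAAT was found 1 time in *Ccnb1*, 3 times in *Ccnb2* and 2 times in *Cdk1*, and TTTGAA 1 time in *Cdk1*. The same stretch of *Cdk2*, which also passed no test and is not printed, held CCAAT 1 time. Those of the outer and inner window of *Ccnd3*, also not printed, held it 0 and 1 times. Over the whole windows and both strands, CCAAT was found 2, 3 and 3 times in *Ccnb1*, *Ccnb2* and *Cdk1*, 1 time in *Cdk2* and in the inner of 2 windows of *Ccnd3*, and not in *Cdk4*, against 37.4% of all 32851 windows with at least 1 match. TTTGAA was in the windows of *Ccnb2* and *Cdk1*, 2 times each, against 17.9% of all windows. For E2F the letters TTCCCGC were searched together with the forms TTGGCGC and TTCGCGC and the form TTGCCGC, and at least 1 of them was in *Ccnb1*, *Cdk1* and *Cdk2*, against 9.57% of windows. GGAATG, the letters that TEAD factors, the DNA-binding partners of YAP, recognise, was in the inner window of *Ccnd3* only, against 14.7% of windows, and GGGCGG in the windows of all 6 members, against 35.7%. The form TTGGCGC can share letters with ATTGG, the complement of CCAAT. These are matches of letters and not measured binding.

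**Figure D2:**
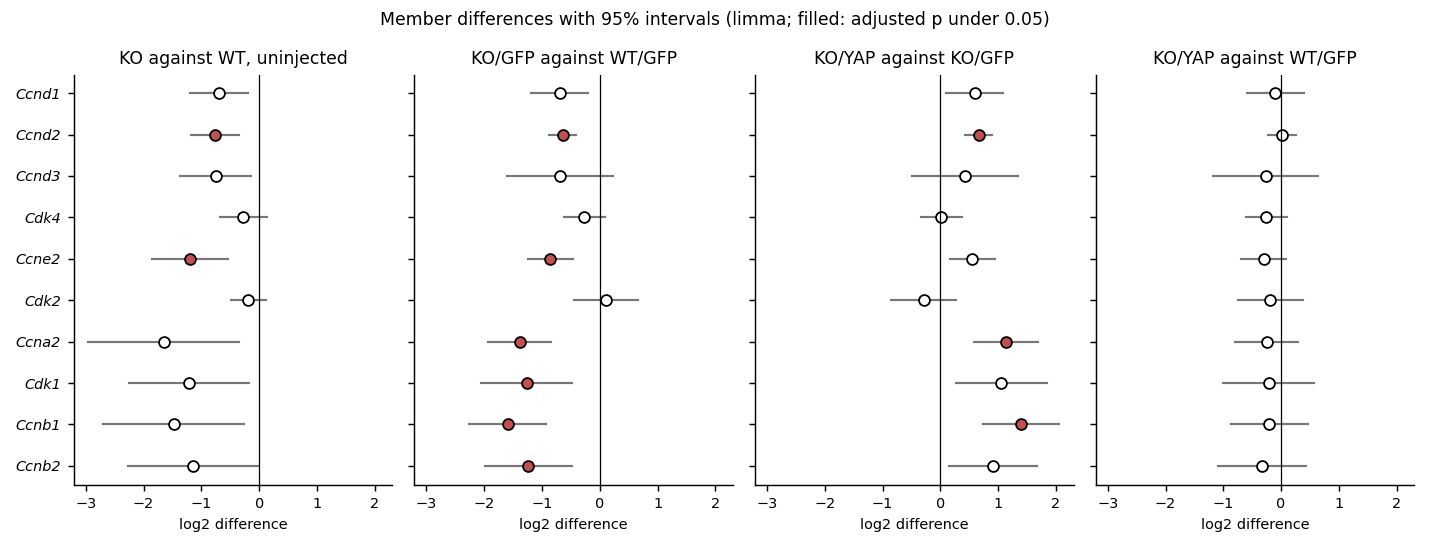
Log2 difference (horizontal axis) of each of the 10 members in 4 comparisons, with 95% intervals from limma; filled points have an adjusted p under 0.05. The filled points lie below 0 for KO against WT and above 0 for KO/YAP against KO/GFP, and between KO/YAP and WT/GFP every interval includes 0.

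The D-type cyclins were next compared as a class with the A-, B- and E-type cyclins. In uninjected KO hearts the 3 D-type cyclins differed from WT by a mean log2 of -0.74 (range -0.77 to -0.69) and the 4 A/B/E-type cyclins by -1.37 (range -1.65 to -1.15), or by -0.93 and -1.91 without KO replicate 4. Between KO/GFP and WT/GFP hearts the means were -0.67 (range -0.69 to -0.64) and -1.27 (range -1.60 to -0.85). Between KO/YAP and KO/GFP hearts they were 0.56 (range 0.42 to 0.66) and 1.00 (range 0.55 to 1.39). In these 3 comparisons the mean D-type change was the smaller, by 0.63, 0.59 and 0.44 on the log2 scale. This did not hold for each gene: between KO/YAP and KO/GFP *Ccne2* rose by 0.55, less than *Ccnd1* and *Ccnd2*. *Ccne1*, an E-type cyclin outside the 10 members, changed by -0.97, -0.37 and 0.004 in the 3 comparisons. These are descriptions of a chosen list with no test. The medians over all genes tested were 0.00, -0.01 and 0.01.

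The ratio of the classes in each heart shows how far this held from heart to heart. Summed CPM per kb of the 3 D-type cyclins over that of the 4 A/B/E-type cyclins was 1.53, 1.53, 2.09 and 1.59 in uninjected WT hearts and 3.35, 3.258, 5.08 and 1.11 in KO hearts. In all, 3 of the 4 KO hearts thus lay above all WT hearts, and replicate 4 below them. In injected hearts the ratio was 1.56, 1.39, 1.87 and 1.98 in WT/GFP, 2.87, 1.83, 2.51 and 4.23 in KO/GFP, 2.17, 1.96, 1.86 and 1.83 in KO/YAP, and 1.60, 1.35, 1.58 and 1.86 in WT/YAP. KO/GFP replicate 2 was within the range of WT/GFP, and the other 3 KO/GFP hearts were above every other injected heart.

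**Figure D3:**
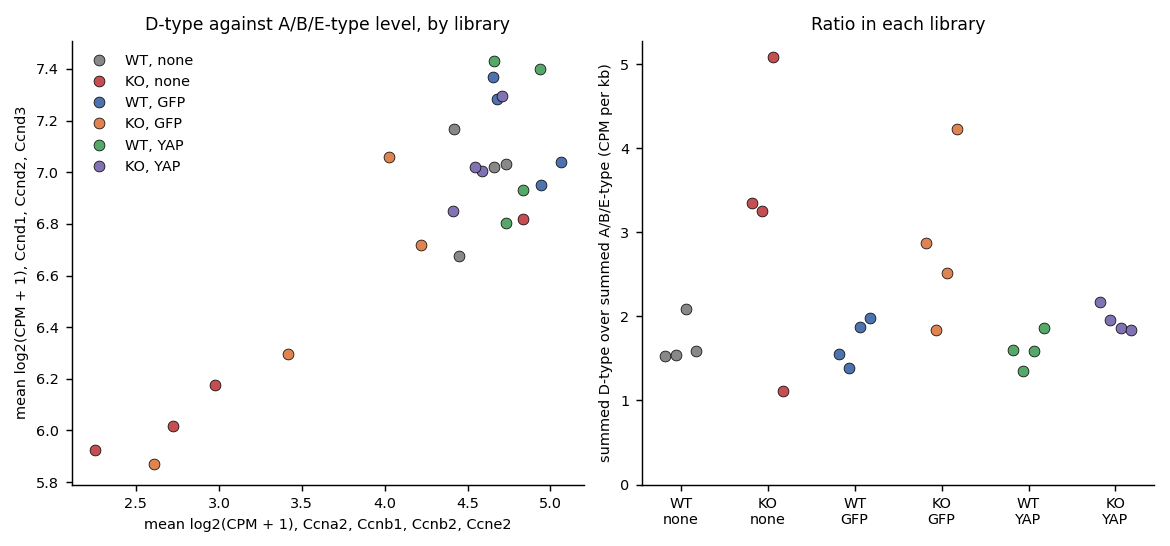
Left, mean log2(CPM + 1) of the 3 D-type cyclins (vertical axis) against that of the 4 A/B/E-type cyclins (horizontal axis) in each of 24 libraries; right, the ratio of their summed CPM per kb in each library of the 6 groups, replicates 1 to 4 from left to right. Uninjected KO replicates 1 to 3 and KO/GFP replicates 1 and 4 lie at the lower left, and the ratio ranges from 1.11 in uninjected KO replicate 4 to 5.08 in replicate 3.

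Levels between genes were compared as CPM per kb of annotated exon. The length joined the exons of all annotated transcripts of a gene, such as 8.775 kb for *Ccnd3* and 6.219 kb for *Cdk2*. The order of genes and the size of the class ratio above therefore depend in part on the annotation. In WT/GFP hearts *Ccnd1* was highest at 37.1 ± 2.75 CPM per kb (SD, n = 4), then *Cdk4* at 31.4 ± 4.14 and *Ccnd2* at 30.2 ± 2.62. The hearts of neighbours in this order overlapped, and all 3 lay above the next gene. *Ccnb2* at 18.4 ± 3.46 and *Ccna2* at 16.2 ± 1.66 CPM per kb followed, and these overlapped each other but none of the lower genes. *Ccnb1*, *Cdk1*, *Ccnd3* and *Cdk2* lay between 5.84 and 7.22 CPM per kb, each overlapping the next, and *Ccne2* was lowest at 2.93 ± 0.149 CPM per kb. In KO/GFP hearts the first 3 places were held by the same genes, with *Cdk4* first at 26.7 ± 8.40 CPM per kb, and all neighbours in the order overlapped. *Ccne2* was last in all 6 groups.

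**Figure D4:**
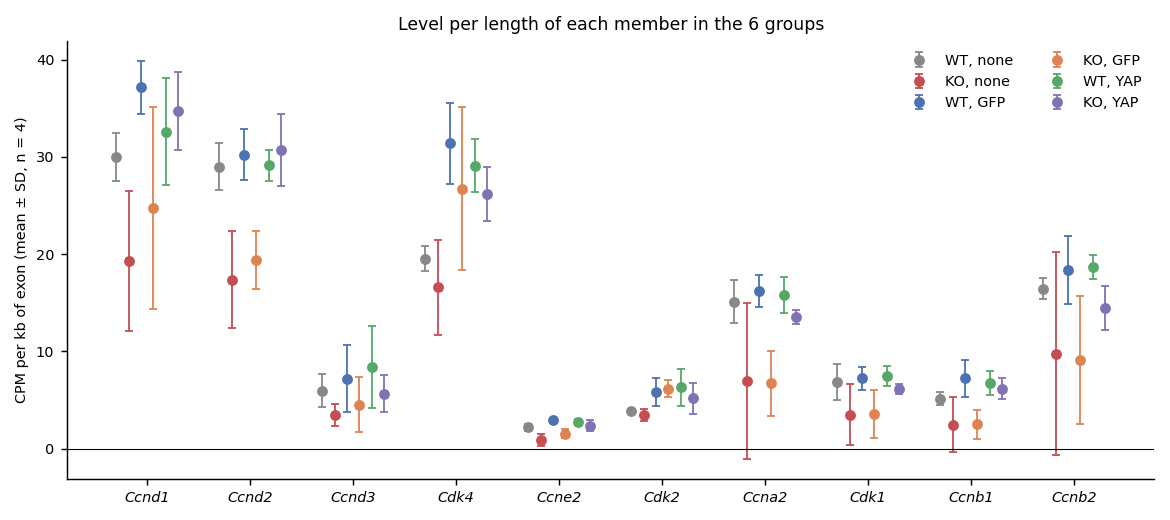
Level of each member in CPM per kb of exon (vertical axis, mean ± SD of 4 libraries) in the 6 groups of WT and KO hearts with no virus, GFP or YAP. *Ccnd1*, *Ccnd2* and *Cdk4* are the highest per length and *Ccne2* the lowest, at 2.93 CPM per kb in WT/GFP hearts.

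With YAP S127A in WT hearts no member passed the test. WT/YAP was compared with WT/GFP, and 0 of 10 members were called by limma, where 0% of 14597 genes were called, and no member had an unadjusted p under 0.05 (1011 of all genes did). The log2 differences ran from -0.20 for *Ccnd1* (95% interval -0.69 to 0.29) to 0.20 for *Ccnd3* (-0.72 to 1.11). The interval of *Ccnd2*, -0.29 to 0.19, was the narrowest. KO/YAP hearts also had 0 members called against WT/GFP hearts (0.0206% of genes called) and 0 against WT/YAP hearts (0.0411% of genes called) by limma, with none at an unadjusted p under 0.05 in either. DESeq2, edgeR's quasi-likelihood test and edgeR's exact test called 0 members in all 3 comparisons as well. Against WT/GFP, 9 of 10 members were lower in KO/YAP hearts, with a median of -0.23 and a range of -0.33 for *Ccnb2* to 0.02 for *Ccnd2*.

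Other cyclins and Cdks of the cell cycle outside the 10 were *Ccne1* and *Cdk6*. *Ccne1*, the other E-type cyclin, was 7.65, 7.31, 6.14 and 8.33 CPM in WT/GFP, 6.46, 5.30, 8.48 and 2.81 CPM in KO/GFP and 5.36, 4.67, 5.38 and 6.46 CPM in KO/YAP, with overlap and no call (limma adjusted p = 0.275 and 0.992). WT/YAP hearts held 7.54, 10.6, 8.87 and 10.2 CPM of *Ccne1*, all above the KO/YAP hearts, yet the difference of KO/YAP from WT/YAP did not pass (log2 -0.67 ± 0.21, limma adjusted p = 0.291). In uninjected hearts *Ccne1* was 8.47, 7.39, 6.90 and 6.30 CPM in WT and 2.53, 2.40, 2.05 and 7.40 CPM in KO, where only replicate 4 reached the WT values. This difference was -0.97 ± 0.30 on the log2 scale (limma adjusted p = 0.0857), and -1.31 without replicate 4 (limma adjusted p = 0.000687). *Cdk6*, the other kinase of D-type cyclins, was 55.3, 57.7, 59.6 and 60.8 CPM in WT/GFP and 90.0, 74.3, 83.5 and 96.2 CPM in KO/GFP. All KO/GFP hearts were above all WT/GFP hearts, and *Cdk6* rose by log2 0.55 ± 0.09 (limma adjusted p = 0.00124) where *Ccnd2* fell. KO/YAP hearts held 71.0, 74.7, 61.0 and 76.6 CPM of *Cdk6* (log2 -0.27 against KO/GFP, limma adjusted p = 0.0549). In uninjected KO hearts *Cdk6* was 10.7, 94.1, 107 and 92.5 CPM against 84.2, 81.4, 64.0 and 68.6 CPM in WT, so replicate 1 alone was low. *Ccna1* and *Ccnb3* are not listed in either table.

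Genes that act on these kinases were taken as lists. Over all genes, 7.22% were called lower and 6.43% higher in KO/GFP against WT/GFP hearts, 7.85% higher and 6.92% lower in KO/YAP against KO/GFP hearts, and 3.46% lower and 3.23% higher in uninjected KO hearts (7.98% lower without KO replicate 4), and the counts of each list are to be read against these shares. Of 9 genes that activate or restrain Cdks by phosphorylation or as subunits, 2 were lower in KO/GFP than in WT/GFP hearts and all 9 had negative differences (median -0.56). These were *Cks2*, a small Cdk-binding subunit, from a mean of 21.4 to 10.03 CPM (log2 -1.23 ± 0.31, limma adjusted p = 0.014), and *Cdc25b*, a phosphatase that activates Cdk1, from 17.8 to 11.99 CPM (log2 -0.58 ± 0.17, limma adjusted p = 0.0359). *Cks2* was 17.2 CPM in KO/YAP hearts (log2 0.94 ± 0.31 against KO/GFP, limma adjusted p = 0.049), the 1 call there. In uninjected hearts the 1 call was *Pkmyt1*, a kinase that restrains Cdk1, at 4.45 CPM in KO and 10.05 CPM in WT (log2 -1.06 ± 0.20, limma adjusted p = 0.0148). Without KO replicate 4, 5 of the 9 were called lower there (median -0.71 in place of -0.45), with *Pkmyt1* at -1.25.

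Of 6 Cdk inhibitors tested, *Cdkn1a*, which encodes p21, rose in KO hearts of both experiments, from 39.4 to 115 CPM in uninjected hearts (log2 1.51 ± 0.15, limma adjusted p = 0.00145) and from 49.3 to 105 CPM in GFP hearts (log2 1.06 ± 0.15, limma adjusted p = 0.000288). In KO/YAP hearts it was 74.7 CPM, lower than in KO/GFP (log2 -0.48 ± 0.15, limma adjusted p = 0.0385). Without uninjected KO replicate 4 the rise was 1.60, and 2 of the 6 inhibitors were then called lower, where none was with it. *Cdkn2c*, which encodes the Cdk4 and Cdk6 inhibitor p18, went the other way: it was 39.9 CPM in WT/GFP, 21.9 CPM in KO/GFP (log2 -0.90 ± 0.19, limma adjusted p = 0.00433) and 34.5 CPM in KO/YAP hearts (log2 0.69 ± 0.19, limma adjusted p = 0.0205).

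Of 18 genes of the machinery that destroys cyclins, 4 were lower and 1 higher in KO/GFP than in WT/GFP hearts, and 5 were higher and none lower in KO/YAP than in KO/GFP hearts. *Ube2c*, the ubiquitin-conjugating enzyme of the anaphase-promoting complex, had means of 43.5, 17.1 and 34.8 CPM in WT/GFP, KO/GFP and KO/YAP hearts (log2 -1.68 and 1.36, limma adjusted p = 0.0102 and 0.0297). *Cdc20*, an activator of that complex, had 35.9, 13.1 and 29.5 CPM (log2 -1.55 and 1.28, limma adjusted p = 0.00237 and 0.0075). *Fbxo5*, an inhibitor of that complex, was lower in KO/GFP hearts (log2 -0.99 ± 0.25, limma adjusted p = 0.0151), and *Fbxw7*, which marks cyclin E for destruction, was the gene that was higher (log2 0.55 ± 0.14, limma adjusted p = 0.0167). *Anapc1*, a scaffold subunit of the complex, was higher in KO/YAP than in KO/GFP hearts (log2 0.36 ± 0.10, limma adjusted p = 0.0184). The remaining calls, named after their values were seen, were *Cdc16*, a subunit of the complex, lower in KO/GFP (log2 -0.29) and higher in KO/YAP (log2 0.28), and *Fzr1*, its other activator, higher in KO/YAP (log2 0.36). In uninjected hearts none of the 18 was called by limma, against 4 called lower without KO replicate 4.

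Of 30 other cyclins and Cdks tested, 3 were called between KO/GFP and WT/GFP hearts (where 13.7% of all genes were called) and the list's median was 0.11, against -1.31 for the 4 A/B/E-type members. *Ccnf*, a cyclin-like F-box protein of G2, was lower (log2 -1.21 ± 0.32, limma adjusted p = 0.0174) and was also lower in uninjected KO hearts, at 4.23 CPM against 14.1 CPM (log2 -1.84 ± 0.44, limma adjusted p = 0.041). *Ccnl2*, a cyclin tied to splicing, rose from 105 to 191 CPM (log2 0.86 ± 0.13, limma adjusted p = 0.000425) and was 111 CPM in KO/YAP hearts. *Cdk8*, a kinase of the Mediator complex, rose from 28.0 to 42.7 CPM (log2 0.59 ± 0.11, limma adjusted p = 0.00248) and was 28.9 CPM in KO/YAP hearts. Both were lower in KO/YAP than in KO/GFP hearts, by log2 -0.78 (limma adjusted p = 0.000756) and -0.56 (limma adjusted p = 0.00329). In uninjected hearts *Cdk9*, a kinase of transcription elongation, was higher in KO (log2 0.36 ± 0.09, limma adjusted p = 0.049). Without KO replicate 4 the uninjected differences were -2.33 for *Ccnf* and 0.35 for *Cdk9*, both called, and 2 of the 30 were higher and 2 lower.

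**Figure D5:**
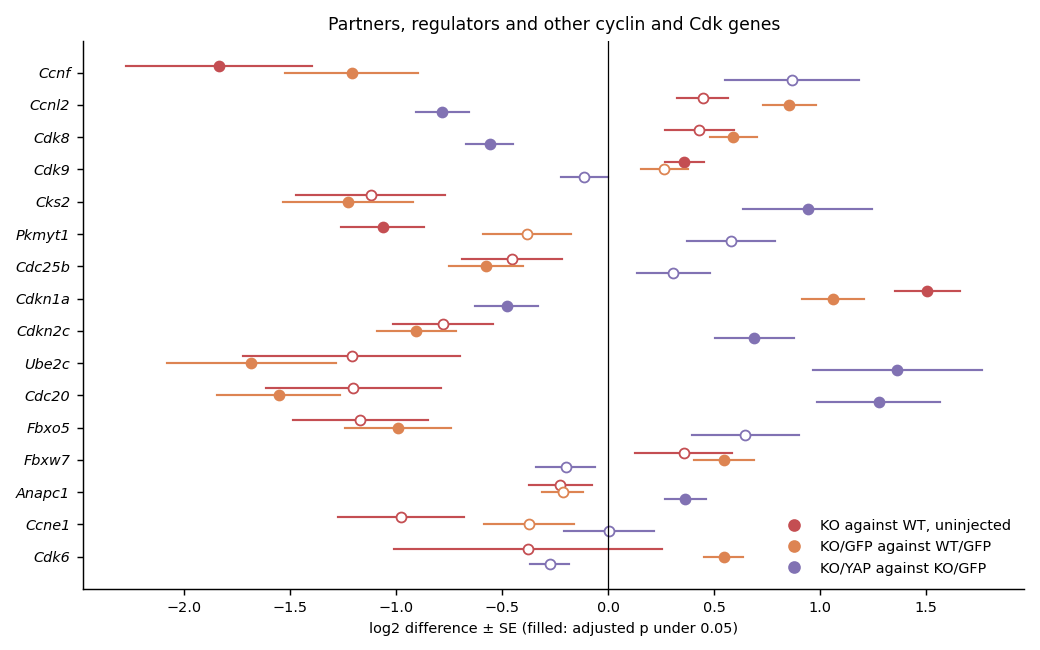
Log2 difference ± SE (horizontal axis) in 3 comparisons for other cyclin and Cdk genes and for activators, inhibitors and destroyers of cyclin-Cdk complexes; filled points have an adjusted p under 0.05 by limma. *Cdkn1a*, *Ccnl2* and *Cdk8* lie right of 0 in KO hearts and left of 0 for KO/YAP against KO/GFP, and *Ube2c*, *Cdc20*, *Cks2* and *Cdkn2c* lie the other way round.

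The genes nearest in pattern were sought over the 16 injected libraries by the root mean square distance between profiles of log2(CPM + 1), each centred on its own mean. For *Ccnd1* they were *Tpm4*, *Tubb6* and *Thy1*, at distances of 0.0886, 0.13 and 0.149. Among those for *Ccnd2* were *Ppm1f* and *Cab39l*, at 0.115 and 0.124. For *Ccnb1* they were *Aurka*, *Ckap2l* and *Ccna2*, at 0.177, 0.197 and 0.198. *Ccnb2* was at place 18 and *Cdk1* at place 29 among all genes for *Ccnb1*, and *Ccnd1* and *Ccnd2* were at places 342 and 399. For *Ccnd1*, *Ccnd2* was at place 381, and for *Ccnd2*, *Ccnd1* was at place 2078, both at a distance of 0.288. A gene without any change would lie at 0.309 from *Ccnd2*, 0.420 from *Ccnd1* and 0.787 from *Ccnb1*. The distance depends on the size of the changes, so places cannot be compared between these genes.

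Markers of dividing cells, fibroblasts and macrophages also differed between these groups. The shares of all genes called are those given for the regulator lists, between 6.43% and 7.85% in each direction in injected hearts, so that 1 gene of a list of 8 or 10 is near the background. Of 10 proliferation markers (*Mki67*, *Top2a* and others), 9 were lower in KO/GFP than in WT/GFP hearts and 6 higher in KO/YAP than in KO/GFP hearts. None was called in uninjected hearts by limma, and all 10 were lower there without KO replicate 4. Their summed level was 577 to 702 CPM in uninjected WT hearts and 204, 177, 135 and 668 CPM in KO hearts. In injected hearts it was 595 to 673 CPM in WT/GFP, 258, 439, 444 and 136 CPM in KO/GFP, and 493 to 589 CPM in KO/YAP. KO/GFP replicates 1 and 4, the lowest for most members, were thus also the lowest here.

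Of 8 fibroblast markers, 6 were lower in KO/GFP than in WT/GFP hearts and 6 higher in KO/YAP than in KO/GFP hearts, with summed levels of 4615 to 5447 CPM in WT/GFP, 2156 to 3580.1 CPM in KO/GFP and 4990 to 6002 CPM in KO/YAP. Of 8 macrophage markers, 7 were lower and 6 higher in the same comparisons, with sums of 100.2 to 157 CPM in WT/GFP, 69.0, 38.1, 34.0 and 88.8 CPM in KO/GFP and 101 to 127 CPM in KO/YAP. Within KO/GFP, the fibroblast sum was lowest in replicates 1 and 4, at 2657 and 2156 CPM, as most members were, while the macrophage sum was highest in these 2 hearts. In uninjected hearts 4 fibroblast and 6 macrophage markers were lower in KO (5 and 4 without KO replicate 4), and KO replicate 4 had 3869 CPM of the fibroblast sum, against 5146 to 5380.4 CPM in WT, and 32.0 CPM of the macrophage sum, against 83.2 to 101 CPM. Among the uninjected KO hearts replicate 4 had the highest fibroblast sum, against 2997, 2525 and 2816 CPM in replicates 1 to 3. Its macrophage sum was the lowest, against 45.2, 36.5 and 56.4 CPM in these. Its A- and B-type cyclins were at or above WT. Of 8 endothelial markers 3 were lower in KO/GFP, and then 2 were higher and 1 lower in KO/YAP. Of 8 smooth muscle and pericyte markers 1 was lower and then 3 were higher, and of 7 erythroid markers 5 were lower and then none was called by limma. Of 10 cardiomyocyte markers 2 were higher in KO/GFP and 2 lower in KO/YAP, and their sums overlapped, at 57699 to 73107, 63720.3 to 76634 and 63570 to 67901 CPM in the 3 groups. No marker of these lists was at 0 in all libraries of an injected group. Their part in the member differences was not tested.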

How the data were processed

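Poly(A) RNA of 24 hearts was sequenced in 2 experiments. The authors trimmed reads with cutadapt (2.3), checked them with FastQC, aligned them to GRCm38 with HISAT2 (2.1.0), estimated gene counts with StringTie (1.3.4), and scaled these with edgeR (3.26.1), by the submitters' processing notes. The deposited signal is CPM on edgeR's rescaled library sizes, so its columns sum to 942566 to 1084066 (uninjected) and 951561 to 1134439 (injected). At least 99.95% of values per library gave whole reads (tolerance 0.05), 15015038 to 31154155 a library. Since StringTie counts derive from coverage, they are estimates, and their number limits the precision of low genes.

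Differences were tested with limma (3.58.1, mean-variance trend) on log2(CPM + 1), which understates changes of low genes, over genes above 1 CPM in at least 4 uninjected or 8 injected libraries. The 16 injected libraries shared 1 fit, with Benjamini-Hochberg adjustment over all genes and a threshold of 0.05. Alternatives were other scalings, pseudocounts and filters, edgeR (4.0.16), DESeq2 (1.42.0), a replicate block, *Ddx3y* as covariate, and each library left out. Scripts ran in R (4.3.3) and Python (3.11.15) and were tested on simulated data. The members and lists were chosen with earlier results of these data known. Named were all members, *Xirp2*, *Ccne1*, *Cdk6*, the 3 genes nearest in pattern to *Ccnd1*, *Ccnd2* and *Ccnb1*, and per list up to 5 called genes of largest change. One gene that this rule names is not reported here. Gene positions are from GENCODE.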

Additional observations from a re-analysis of the deposited data

Results flagged for a closer look

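Single hearts lay far from the other 3 of their group in 9 of the 72 groups of values examined (the 10 members, *Ccne1* and *Cdk6* in 6 groups each), where chance alone flags about 1 in 20 groups, or 3.6 here. In uninjected KO hearts, replicate 4 was high in *Ccna2* (77.2 CPM against 7.04 to 16.7), *Ccnb1* (28.5 CPM against 2.75 to 6.36), *Ccnb2* (38.7 CPM against 4.995 to 8.84) and *Ccne1* (7.40 CPM against 2.05 to 2.53), and replicate 1 was low in *Cdk2* (16.03 CPM against 22.8 to 24.0) and *Cdk6* (10.7 CPM against 92.5 to 107). The others were *Ccnb2* in uninjected WT replicate 3 (22.7 CPM against 25.8 to 26.3), *Ccnd2* in WT/GFP replicate 3 (247.2 CPM against 296 to 297) and *Cdk2* in WT/YAP replicate 2 (21.5 CPM against 44.8 to 45.7).

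The effect of YAP S127A on *Ccnd2* differed between KO and WT hearts by 0.71 on the log2 scale (interaction test, limma adjusted p = 0.014). KO/YAP exceeded KO/GFP by 0.66, and WT/YAP differed from WT/GFP by -0.05.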

How the results depend on the processing

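The count of members called in uninjected hearts, 2 by limma, was 1 with quantile scaling, a pseudocount of 0.1 or a filter of 5 CPM, 0 with edgeR's quasi-likelihood test, 7 with *Ddx3y* as a covariate, and 0 to 8 with 1 library left out (8 without KO replicate 4). Between KO/GFP and WT/GFP it was 6, with 4 under both edgeR tests or with only those groups in the fit, and 4 to 8 with 1 library left out (4 without KO/GFP replicate 1 or 4 or WT/GFP replicate 1 or 2). Between KO/YAP and KO/GFP it was 3, with 7 under plain library totals and 3 to 6 with 1 library left out (6 without KO/GFP replicate 2 or 3). In the interaction it was 1, with 3 under plain library totals or DESeq2 and 1 to 3 with 1 library left out (3 without KO/GFP replicate 2 or 3). With a replicate block it was 0 in uninjected hearts and 2 in the interaction. The same replicate numbers did not pair the samples, since only 1 of 28 pairs correlated above 0.1 and 4 of 28 correlated best with their own number.

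In the comparisons of KO with WT without YAP and of KO/YAP with KO/GFP, the member differences that changed sign were not called. Uncalled differences in the other comparisons, such as *Ccnd3* in WT/YAP against WT/GFP (-0.09 to 0.53), also changed sign with 1 library left out. *Cdk2*, 0.10 between KO/GFP and WT/GFP, was -0.0041 under plain library totals and -0.088 to 0.20 with 1 library left out. *Cdk4*, 0.01 between KO/YAP and KO/GFP, was -0.038 with both edgeR tests, -0.034 with DESeq2, -0.0095 with the *Ddx3y* covariate and -0.14 to 0.19 with 1 library left out. The cause of these changes was not tested. Over all genes, 1044 were called in uninjected hearts, against 1955 with DESeq2, 1594 with plain totals, 1927 with the covariate, 692 with the 5 CPM filter (fewer genes tested) and 201 higher and 184 lower with the block, and 379 (without WT replicate 1) to 2098 (without KO replicate 4) with 1 library left out. With only the 2 groups in the fit (fewer samples), 930 were called between KO/GFP and WT/GFP (1993 otherwise) and 1208 between KO/YAP and KO/GFP (2156 otherwise). In the interaction the block gave 707 (1104 otherwise). With 1 library left out the interaction had 631 (without WT/YAP replicate 4) to 1474 (without KO/GFP replicate 2). KO/GFP against WT/GFP then had 1262 (without KO/GFP replicate 4) to 2756 (without KO/GFP replicate 2). KO/YAP against KO/GFP had 1480 (without KO/GFP replicate 1) to 2500 (without KO/GFP replicate 2). The smaller D-type change held its direction under every alternative run, at 0.42 to 0.98 in uninjected hearts with 1 library left out.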
